A study of Mus musculus with 14 samples.

Results

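The lysosome genes described here are 37 listed mouse genes whose products digest macromolecules in the lysosome, line its membrane, acidify it or regulate it. They were matched by symbol among the 21444 Ensembl genes of the mRNA tables, all 37 were found, and all 37 passed the filter on low counts that left 14019 genes for testing. The cells were bone marrow derived macrophages of C57BL/6 mice. The tested genotype, labelled KO below, carried ELAVL1f/f with LysM-Cre, and the other, labelled WT, carried ELAVL1f/f with no Cre named. Both genotypes therefore share the floxed allele, and the Cre, which sits in the Lyz2 gene and acts in myeloid cells, is found in KO cells only. Marrow was grown in DMEM with 20% medium conditioned by L929 fibroblasts, a source of the macrophage growth factor CSF1, for 6 days by the sample protocols and 7 days by the series text, which could not be settled. The data used were 4 KO and 4 WT mRNA libraries numbered 1 to 4, the small RNA libraries KO3, KO4, WT1 and WT2, and 1 AGO2 PAR-CLIP library of each genotype. The series text calls the mRNA repeats biological without tying a number to an animal, so the p-values given here reflect only how far these samples spread, which may be technical.

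Lysosomes are the acidic compartments in which a macrophage breaks down what it takes up. Cathepsins cut proteins, glycosidases take sugars off glycoproteins and glycolipids, and lipases, ceramidases and the saposins cut from prosaposin handle lipids, while the vacuolar proton pump keeps the lumen acid. TFEB is a transcription factor that activates many of these genes through a DNA element known as CLEAR. The study asks how ELAVL1, an RNA-binding protein also called HuR that binds U-rich stretches, bears on where AGO2, the protein that carries miRNAs to their target mRNAs, is bound.

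Total counts ran from 8160789 (KO1) to 25030262 (KO4) over the 8 mRNA libraries. Elavl1 mRNA was not lower in the libraries labelled KO, at 76.8, 64.1, 64.9 and 72.4 CPM (counts per 1000000, scaled by TMM) in KO1 to KO4, against 65.9, 61.2, 62.6 and 64.2 CPM in WT1 to WT4. The tables give 1 count a gene, from which a deletion of some exons cannot be read, so KO and WT mean libraries so labelled. Lyz2, where the Cre sits, averaged 5067 ± 1004 CPM in KO and 12428 ± 2556 CPM in WT (SD, n = 4 each), and a Cre effect cannot be told apart from a loss of ELAVL1. The 11 macrophage markers summed to 12508 to 14152 CPM in KO and 12537 to 14395 CPM in WT, whereas stromal markers summed to 3.69 to 105 CPM in KO and 5.04 to 55 CPM in WT, with their highest sums in numbers 3 and 4. In such bulk samples fewer cells of a type and less RNA per cell cannot be told apart.

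Lysosome mRNAs were among the most abundant of the macrophages. On the RPKM scale of the deposited tables, which divides reads by gene length and depth, 36 of the 37 stood above the median of 5.43 RPKM over all genes tested, and 7 were among the 100 highest genes. Cathepsin B (Ctsb), a cysteine protease, led with a mean of 4668 RPKM over 8 libraries, followed by prosaposin (Psap) at 3088, the aspartic protease cathepsin D (Ctsd) at 2682 and the carboxypeptidase cathepsin Z (Ctsz) at 1465. Cathepsin S (Ctss), which trims antigens and the invariant chain, averaged 627 RPKM, and Npc2, which hands cholesterol to the membrane protein NPC1, averaged 762.

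Tfeb and Gnptab had the lowest levels of the list. Tfeb averaged 6.06 RPKM, and Gnptab, which encodes a subunit of the transferase that begins the mannose 6-phosphate tag of lysosomal enzymes, averaged 4.71. Mcoln1, a cation channel of the lysosome membrane, stood at 17.5. Among enzymes the glycosidases ran from 13.1 RPKM for the mannosidase Manba to 551 for Hexa, the alpha subunit of beta-hexosaminidase. Lipid handling genes ran from 11.1 for the thioesterase Ppt1 to the 3088 of Psap, the 5 membrane glycoproteins from 28.7 (Scarb2, the receptor that carries glucocerebrosidase) to 458 (Lamp1), and the 4 pump subunits from 30.5 (Atp6v0d2) to 178 (Atp6v0c). These levels rest on the authors' gene lengths. Taken over the total count, the deposited values imply a length of 19.4 kb for Ctsa, longer than the 8.16 kb that the gene spans in RefSeq, and of 2.82 kb for Cd68, against a span of 1.96 kb. Such a length also arose in 7.04% of 10875 genes compared, and it makes the RPKM of those genes low. Counts of Atp6v0c, at 380.6 to 479.5 CPM in KO and 307 to 456 CPM in WT, are uncertain because its pseudogene copy Atp6v0c-ps2 is also in the table, with 2897 to 9650 counts a library.

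**Figure D1:**
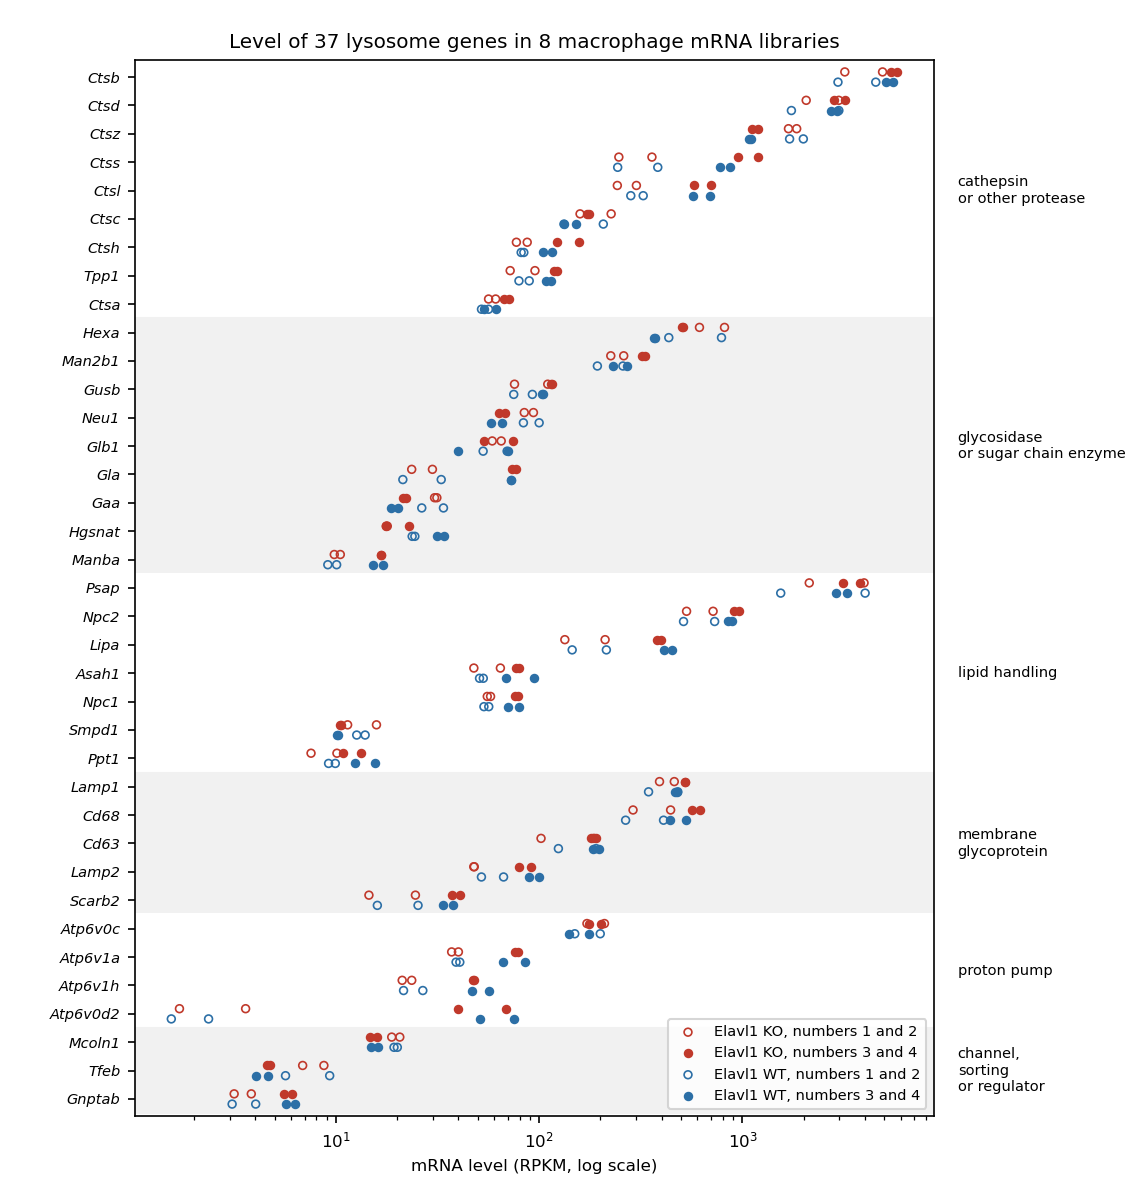
Level of each lysosome gene in RPKM (log axis), one row per gene grouped by role, with the 4 KO libraries drawn as the upper points of a row and the 4 WT libraries as the lower points. Open points are numbers 1 and 2 and filled points numbers 3 and 4. Ctsb, Psap, Ctsd and Ctsz are highest on average, Tfeb and Gnptab are lowest, and in rows such as Atp6v0d2, Ctss and Gla the filled points of both genotypes stand apart from the open ones.

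Together the 37 genes held 4.32, 6.28, 7.10 and 6.38% of all counts in KO1 to KO4, against 3.69, 6.26, 6.10 and 6.25% in WT1 to WT4. KO1 and WT1 were the low library of their genotype, and the genotypes overlapped. The share averaged 6.02 ± 1.19% in KO and 5.58 ± 1.26% in WT (SD, n = 4 each), a difference of 0.444 percentage points that was smaller than either SD. Within number pairs the KO library was higher in all 4, by 0.629, 0.0222, 0.996 and 0.129 points. The Lyz genes take a smaller share in KO, and with Lyz1 and Lyz2 left out of the total the KO library was higher in 3 of 4 pairs, pair 2 being at -0.0159 points. Leaving out WT1 turned the difference to -0.185 points, and leaving out KO3 gave 0.0851.

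A few genes carried most of this share. Psap, Ctsb and Ctsd held 63.0 to 71.7% of the lysosome counts in KO and 59.7 to 70.9% in WT. Psap alone took 1.26, 2.34, 2.27 and 1.89% of all counts in KO1 to KO4, against 0.916, 2.36, 1.77 and 1.98% in WT1 to WT4. Proteases took 2.08 to 3.40% in KO and 1.88 to 3.01% in WT, and lipid handling genes 1.43 to 2.61% in KO and 1.09 to 2.59% in WT. Glycosidases took 0.379 to 0.417% in KO, against 0.313 to 0.413% in WT, and the membrane glycoproteins 0.318 to 0.520% in KO, against 0.305 to 0.477% in WT.

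**Figure D2:**
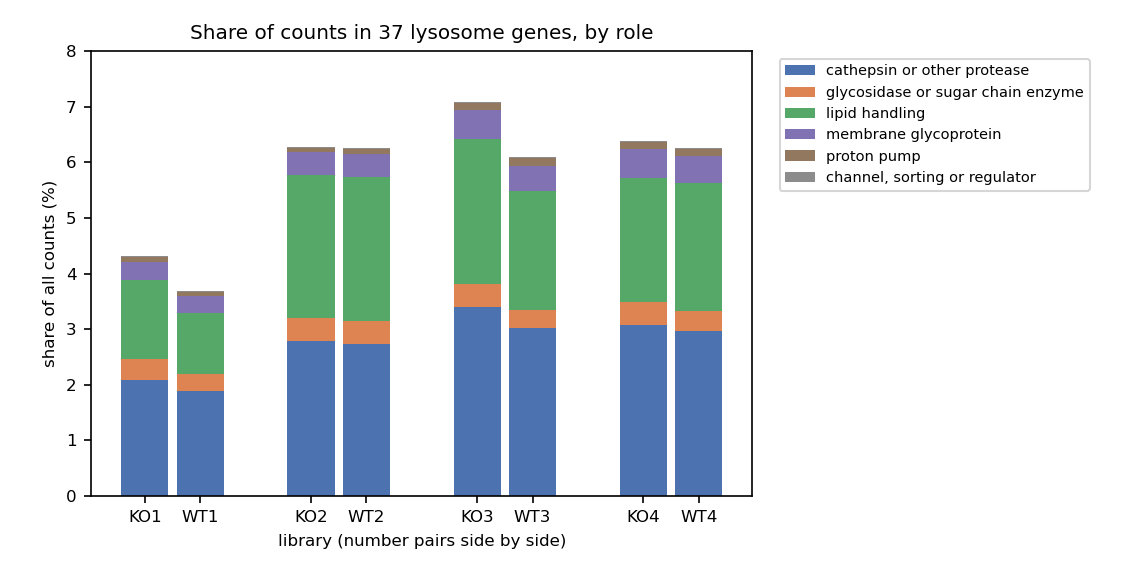
Share of all counts (percent) that fell in the 37 lysosome genes, stacked by role, with the KO library left of the WT library of the same number. Shares ran from 4.32 to 7.10% in KO and from 3.69 to 6.26% in WT, and the pair numbered 1 is the lowest in both genotypes.

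Between genotypes the lysosome mRNAs differed little. In edgeR's quasi-likelihood test with genotype alone, 0 of 37 had an adjusted p under 0.05, where the background was 0% of 14019 genes, with 81 genes (0.578%) at an unadjusted p under 0.05 and 3 (0.0214%) called by DESeq2. Libraries of equal number deviated together, so the number was also fitted as a block, and that fit called 5 genes (0.0357%), again with 0 of the 37. Blocked DESeq2 called 82 genes (0.585%), 2 of them lysosome genes, Hgsnat (lower) and Hexa (higher). The lysosome genes leaned to higher values in KO, with 26 of 37 higher, against 49.6% of all genes tested, and 11 lower, against 50.4%, with a median log2 fold change of 0.06 against -0.00 over all genes. That median was -0.02 without KO3 and -0.04 without WT1, and the count of higher genes was 17 and 16 in those fits. KO exceeded WT in all 4 pairs for 5 genes (Ctsa, Ctsb, Ctsc, Hexa and Cd68; background 9.52%) and was lower in all 4 for 3 (Hgsnat, Lipa and Cd63; background 8.26%).

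Hgsnat had the lowest p of the list. It encodes the lysosome membrane enzyme that acetylates heparan sulfate so that its breakdown can go on. It stood at 56.6, 55.2, 53.7 and 68.1 CPM in KO1 to KO4, against 75.1, 74.9, 95.6 and 102 CPM in WT1 to WT4. All 4 KO libraries lay below all 4 WT libraries, a pattern found in no other lysosome gene and in 0.435% of all genes tested. In 0 of the 37 genes did all KO libraries lie above all WT libraries (background 0.35%). With genotype alone Hgsnat had a log2 fold change of -0.58 (SE 0.16, edgeR adjusted p = 0.9999), and it had -0.57 (SE 0.09, edgeR adjusted p = 0.0509) with the number as a block. Blocked DESeq2 gave an adjusted p of 0.000244 for Hgsnat. Leaving out each pair in turn from the blocked edgeR fit gave an adjusted p of 0.0619 to 0.314, so the call rests on the choice of test. Its log2 fold change was -0.43 in the fit of numbers 1 and 2 alone and -0.71 in that of numbers 3 and 4 alone.

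Hexa, whose product takes part in degrading the ganglioside GM2, stood at 1334, 1748, 1069 and 1032 CPM in KO1 to KO4, against 916, 1709.6, 772 and 760.3 CPM in WT1 to WT4. Library 2 was the highest of both genotypes, the groups overlapped, and KO was higher in every pair. Hexa gave 0.32 on the log2 scale with genotype alone (SE 0.31, edgeR adjusted p = 0.9999) and 0.37 with the block (SE 0.10, edgeR adjusted p = 0.225), and blocked DESeq2 gave an adjusted p of 0.0364. Man2b1, which trims alpha-linked mannose, stood at 831, 949, 1141 and 1151.5 CPM in KO, against 694, 952, 819 and 954 CPM in WT, and pair 2 did not share the direction of the other 3. With the block it gave 0.25 on the log2 scale (SE 0.09, edgeR adjusted p = 0.398). In all, 8 of the 9 glycosidases and sugar chain enzymes had higher values in KO and Hgsnat a lower one.

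Among the 9 proteases 7 had higher values in KO, and none was called. Ctsc, the dipeptidyl peptidase that activates granule proteases, stood at 625, 433, 455 and 459.6 CPM in KO1 to KO4, against 556, 366, 401 and 351 CPM in WT1 to WT4. Its groups overlapped, KO was higher in each pair, and the block gave 0.25 on the log2 scale (SE 0.07, edgeR adjusted p = 0.315). Ctsa, the carboxypeptidase that also protects the galactosidase GLB1 and the sialidase NEU1, stood at 1218, 1109, 1367 and 1264 CPM in KO, against 1092, 1035.5, 1020.1 and 1164 CPM in WT, with a blocked log2 fold change of 0.20 (SE 0.08, edgeR adjusted p = 0.488).

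The other proteases given in full differed less between genotypes than between library numbers. Ctsb stood at 7162, 10842, 12504 and 11482 CPM in KO1 to KO4, against 6442, 10155, 11790 and 10939 CPM in WT1 to WT4. Ctsd stood at 7953, 11360, 11927 and 10325 CPM in KO, against 6537, 11497, 10103 and 10797 CPM in WT. Library 1 was lowest in both genotypes for both genes, and their log2 fold changes were 0.10 (SE 0.26) and 0.09 (SE 0.24). Ctsz stood at 3063, 2755, 1908 and 1742 CPM in KO, against 2747, 3298, 1742 and 1713 CPM in WT (log2 fold change -0.01, SE 0.29). Ctss stood at 770.3, 1106, 3599 and 2794.5 CPM in KO, against 739, 1195.5, 2610 and 2310.5 CPM in WT (0.27, SE 0.55). Ctsl, an endopeptidase, stood at 397, 487, 1103 and 893 CPM in KO, against 449.8, 532, 902 and 1090 CPM in WT (-0.05, SE 0.39). Tpp1, the tripeptidyl peptidase lost in a childhood ceroid lipofuscinosis, stood at 284, 372, 447 and 458 CPM in KO, against 305, 352, 411 and 430.2 CPM in WT (0.06, SE 0.20). For these 6 proteases the genotypes overlapped throughout, and the edgeR adjusted p was 0.9999 for each.

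Of the lipid handling genes 5 of 7 had higher values in KO. Psap stood at 13140, 24132, 22339 and 18161 CPM in KO1 to KO4, against 9241, 24710, 17064 and 19257 CPM in WT1 to WT4. Library 1 was again lowest, 2 of 4 pairs were higher in KO, and Psap gave 0.15 on the log2 scale (SE 0.32, edgeR adjusted p = 0.9999). Npc2 stood at 699.5, 932, 1221 and 1137 CPM in KO, against 657, 960.1, 1121 and 1064 CPM in WT (log2 fold change 0.07, SE 0.24). Ppt1 stood at 77.7, 103, 108 and 129.7 CPM in KO, against 92.2, 102, 153 and 122 CPM in WT (-0.17, SE 0.21).

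Membrane and pump genes split between directions, with 3 of 5 glycoproteins and 1 of 4 pump subunits higher in KO. Lamp2, one of the main proteins of the lysosome membrane, stood at 259, 254, 411 and 465 CPM in KO1 to KO4, against 350.3, 280.1, 515 and 462 CPM in WT1 to WT4. KO was lower in 3 of 4 pairs, the groups overlapped, and the block gave -0.22 on the log2 scale (SE 0.09, edgeR adjusted p = 0.446). The tetraspanin Cd63 stood at 221, 398, 395 and 367 CPM in KO, against 262, 412, 408 and 382 CPM in WT (log2 fold change -0.08, SE 0.23). Atp6v0c, the proteolipid ring subunit, stood at 479.5, 388, 441 and 380.6 CPM in KO, against 333, 456, 307 and 383 CPM in WT (0.19, SE 0.17). Atp6v1h stood at 52.7, 46.7, 102 and 100.6 CPM in KO, against 58.1, 48.0, 121 and 99.7 CPM in WT (-0.12, SE 0.37).

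Tfeb stood at 72.4, 90.8, 48.0 and 45.8 CPM in KO1 to KO4, against 57.9, 98.1, 47.0 and 40.6 CPM in WT1 to WT4. Mcoln1 stood at 87.4, 94.5, 65.4 and 70.2 CPM in KO, against 87.2, 93.0, 71.4 and 65.7 CPM in WT. Both genes were high in numbers 1 and 2 and low in numbers 3 and 4 of either genotype, and their log2 fold changes were 0.08 (SE 0.32) and 0.00 (SE 0.18). A wider list of 74 other lysosome genes, of which 72 were tested, gave 46 higher and 26 lower values in KO with a median log2 fold change of 0.02, and edgeR called 0 of them with or without the block. At an unadjusted p under 0.05 the blocked fit had 8 of those 72 and 7 of the 37 listed genes, beside 9.42% of all genes. The 7 were Ctsa, Ctsc, Hexa, Man2b1 and Cd68 (5 higher, background 4.9%) and Hgsnat and Lamp2 (2 lower, background 4.52%).

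**Figure D3:**
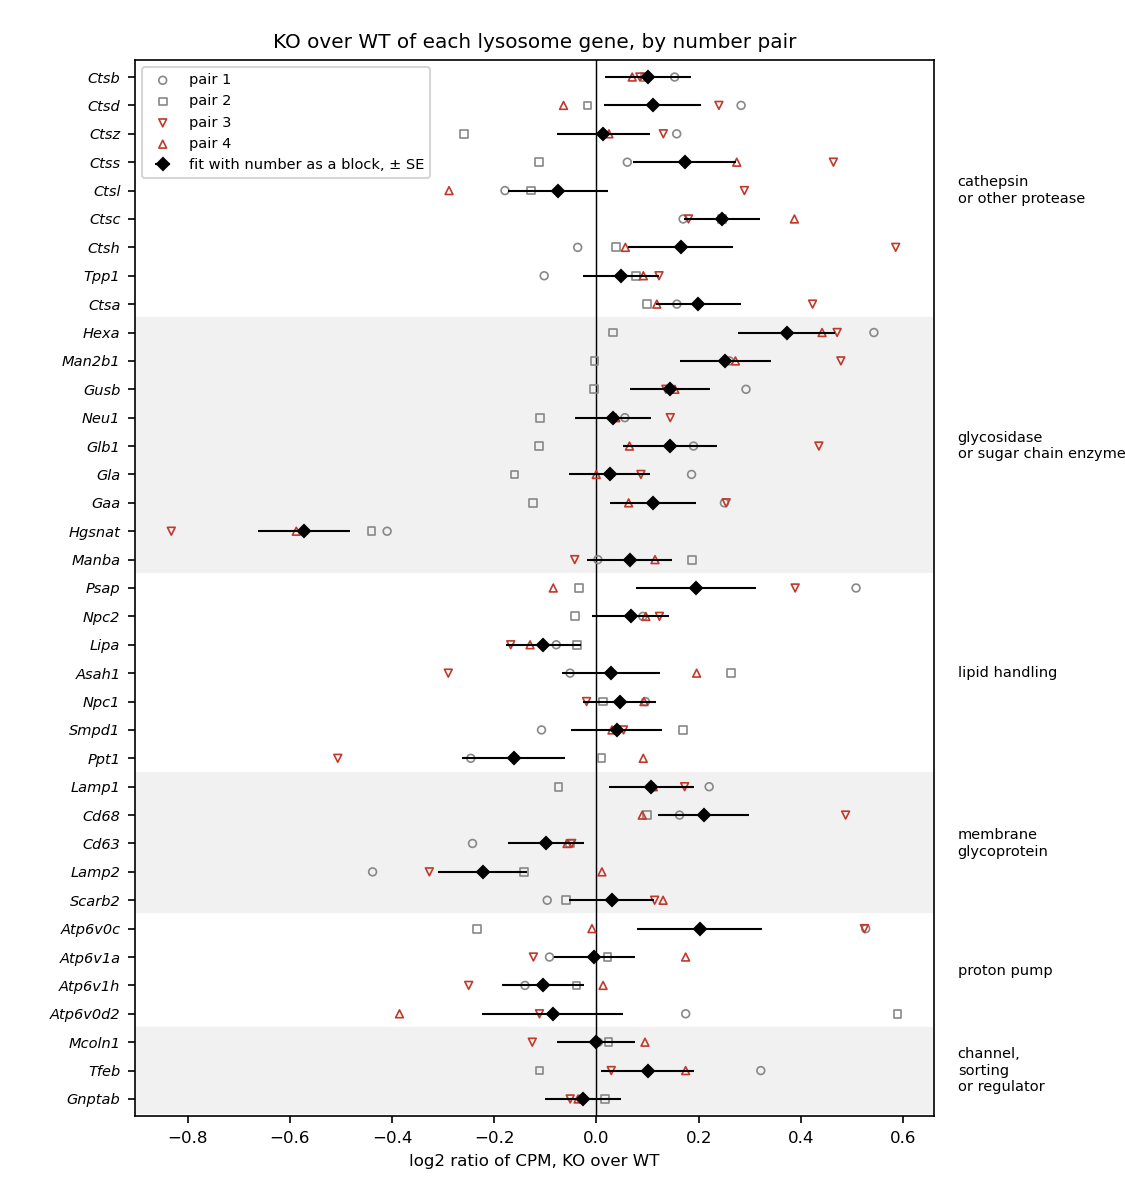
Log2 ratio of CPM, KO over WT, for each lysosome gene by role. Diamonds with bars are the fit with the number as a block ± SE (n = 4 pairs), and open symbols are the 4 number pairs. Hgsnat lies lowest at -0.57, with all 4 pairs below 0, and Hexa highest at 0.37, with all 4 above.

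The replicate number separated lysosome mRNAs more than the genotype did. All libraries numbered 3 and 4 lay above all numbered 1 and 2 for 18 of the 37 genes and below them for 6, against 25.1% and 24.4% of all genes tested, and 13 overlapped. The direction was the same within KO and within WT for all 37. That count was not taken over all genes, whose equal-numbered libraries also deviated together, so it does not set the list apart. This split of the numbers was made after the data were seen and is given with no test. Genes higher in numbers 3 and 4 included 5 of 9 proteases, 5 of 7 lipid handling genes and 3 of 4 pump subunits, while the 6 lower genes were Ctsz, Gaa, Neu1, Smpd1, Mcoln1 and Tfeb. The median log2 ratio of the list was 0.40 on mean CPM, beside 0.00 over all genes. The wider list of other lysosome genes did not share this lean. Of its 72 tested genes 20 lay above and 11 below without overlap, with a median log2 ratio of 0.02.

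Atp6v0d2, a pump subunit known for its part in osteoclast fusion, differed most. It stood at 2.42, 5.06, 94.7 and 53.5 CPM in KO1 to KO4, against 2.14, 3.36, 102 and 69.8 CPM in WT1 to WT4. Numbers 1 and 2 rested on 19 to 96 counts and numbers 3 and 4 on 1393 to 2611, a log2 ratio of 4.58. Ctss followed with 1.57, then the galactosidase Gla with 1.40, the acid lipase Lipa with 1.17, Ctsl with 1.10 and the pump subunit Atp6v1h with 1.04. At the other end Tfeb gave -0.81 and Ctsz -0.74. Markers of other cells and of macrophages differed between the numbers too. Osteoclast markers summed to 208 to 469 CPM in KO and 192 to 370.5 CPM in WT, and their sum was lower in numbers 3 and 4, at 192 to 223 CPM, than in numbers 1 and 2, at 240.0 to 469. Of the 6 measured, Acp5, Mmp9 and Nfatc1 were lower in numbers 3 and 4 without overlap, whereas Ctsk had 40.0 to 56.2 CPM in numbers 3 and 4 and 2.63 to 15.7 in numbers 1 and 2, and Dcstamp 0.576 to 1.17 CPM in numbers 3 and 4 and 0 to 0.127 in numbers 1 and 2. Stromal markers had 13.4 to 105 CPM in numbers 3 and 4 and 3.69 to 10.1 in numbers 1 and 2, with no marker lower there without overlap. Of the 11 macrophage markers Spi1, a transcription factor, was lower, with 375 to 436 CPM in numbers 3 and 4 and 987 to 1128 in numbers 1 and 2, and 2 were higher, Mrc1 with 583 to 657 CPM in numbers 3 and 4 and 230 to 484 in numbers 1 and 2 and Cd14 with 399 to 545 CPM in numbers 3 and 4 and 281 to 395 in numbers 1 and 2. Mast or basophil markers had 8.53 to 11.7 CPM in numbers 3 and 4 and 1.59 to 2.80 in numbers 1 and 2, and Kit led them. Endothelial markers had 41.8 to 66.7 CPM in numbers 3 and 4 and 23.6 to 38.1 in numbers 1 and 2, of which Kdr alone was higher without overlap and Egfl7 lower. B cell markers had 27.1 to 32.2 CPM in numbers 3 and 4 and 42.6 to 54.2 in numbers 1 and 2, nearly all Cd79b, while Cd79a went the other way, and erythroid markers 1.84 to 2.98 CPM in numbers 3 and 4 and 3.94 to 6.82 in numbers 1 and 2. Their part in the lysosome values was not tested. None of the 37 genes had a genotype effect that differed between the number sets in edgeR's interaction test (background 0%, with 133 of all genes and 0 of the 37 at an unadjusted p under 0.05).

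**Figure D4:**
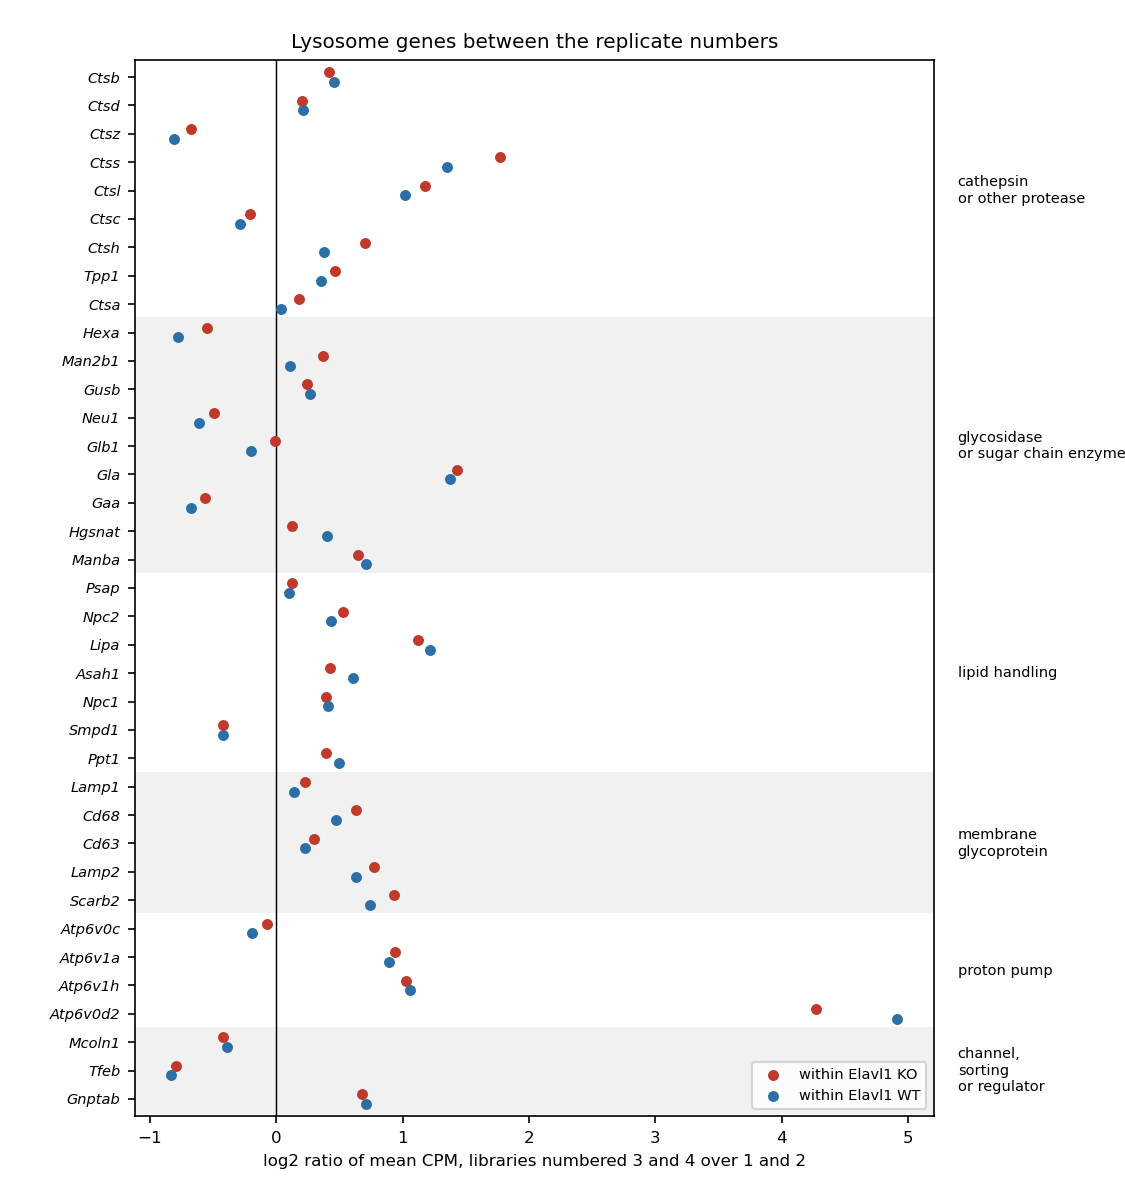
Log2 ratio of mean CPM in libraries numbered 3 and 4 over those numbered 1 and 2, within KO (upper point of a row) and within WT (lower point), for each lysosome gene. The points of both genotypes lie on the same side of 0 in all 37 rows, a count not taken over all genes, and Atp6v0d2 stands far to the right.

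AGO2 PAR-CLIP showed many lysosome mRNAs bound, most of all in the 3′UTR of Psap. In this method the RNA of living cells is labelled with 4-thiouridine and crosslinked to AGO2, and T-to-C conversions in its reads mark the contact. The deposited tables list groups of overlapping reads, 85458 in KO with 6445262 reads and 66451 in WT with 6287870 reads, from 1 library each, so no difference between them has a replicate check and intervals cover counting error only. A 3′UTR group was listed for 26 of 37 lysosome genes in KO and 29 of 37 in WT, where the background was 37.4% of genes in KO and 41% in WT. Lysosome mRNAs are abundant, and in the highest quintile of RPKM values a 3′UTR group was listed for 23 of 31 lysosome genes in KO, beside 48.0% of all genes there, and for 26 of 31 in WT, beside 51.2%. No group of any class was listed for 3 genes in KO and 4 in WT.

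Several of the strongest 3′UTR groups hold a match to the seed of an abundant macrophage miRNA. A seed is bases 2 to 8 of the miRNA, and a match is its complement in the mRNA, either to bases 2 to 8 or to bases 2 to 7 followed by an A. The mature miRNAs that match the printed stretches, from RefSeq (GRCm38.p6) with the seed in capitals, are these:
mmu-miR-24-3p: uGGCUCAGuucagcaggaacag
mmu-miR-27b-3p: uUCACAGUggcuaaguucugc
mmu-miR-22-3p: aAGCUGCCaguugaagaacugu
mmu-miR-140-3p: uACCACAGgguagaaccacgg
mmu-miR-146a-5p: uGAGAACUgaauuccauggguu
mmu-miR-23a-3p: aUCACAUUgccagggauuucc
The stretches of the groups around the matches, 26 to 30 bases read 5′ to 3′ on the mRNA strand with the match in capitals, are those of the 8 genes whose matched group held the most reads:
Psap (miR-24-3p): aggagcattttCTGAGCCctttcttggtgt
Tpp1 (miR-27b-3p): accctcagatgCTGTGAAcaggactcaact
Ctsz (miR-27b-3p): agcgCTGTGAAccatgacagggaggggtga
Glb1 (miR-22-3p): actgccatcccttaatGGCAGCTctg
Ctsd (miR-140-3p): gctgttctgttCTGTGGTtcctcaccctgg
Atp6v0d2 (miR-23a-3p): ggcacagaaatAATGTGAactaattttact
Lipa (miR-146a-5p): attctagggacaggaactcagGTTCTCAtg
Ctsb (miR-146a-5p): tggcccagtgcAGTTCTCtggagaaagcta

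The Psap stretch is chr10:59764732-59764761 (mm9, plus strand), in a 3′UTR group of 18481 reads in KO and 25267 reads in WT, each with 10 conversion locations. It was the strongest lysosome group of either library. The Tpp1 stretch, chr7:112894990-112895019 (minus strand), lay in a group of 4638 reads in WT, and the KO group over it held 1197 reads. The Ctsz stretch, chr2:174253325-174253354 (minus strand), lay in a KO group of 970 reads, and the WT group there, of 1798 reads, held only a part of the match. The Glb1 stretch, chr9:114315713-114315738 (plus strand), was a group of 773 reads in KO and part of one of 478 reads in WT.

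The other stretches carried fewer reads. Ctsd had 314 reads in the KO group around chr7:149562298-149562327 (minus strand), and Atp6v0d2 had 271 reads in the WT group around chr4:19804337-19804366 (minus strand). Lipa had 154 reads in the KO group around chr19:34567898-34567927 (minus strand), and Ctsb had 143 reads in the WT group around chr14:63761620-63761649 (plus strand). Ctsl, which had the second most 3′UTR reads of the list, held no match in its main group of 2917 reads in KO and 3770 in WT. The strongest Ctsb group, of 816 reads in KO and 812 in WT, held none either. Nor did the strongest Ctsd group of WT, of 678 reads, so the printed Ctsb stretch and, in WT, the Ctsd one lie in weaker groups.

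Over both libraries the miR-27 seed had a match in 3′UTR groups of 7 lysosome genes (Asah1, Ctsz, Gaa, Gnptab, Manba, Npc1 and Tpp1) and the miR-24 seed in 5 (Ctsb, Ctsz, Lipa, Npc2 and Psap). The miR-21a seed, of the miRNA with the most reads, had a match in 0. By groups the miR-27 seed had a match in 4.38% of lysosome groups in KO, beside 3.30% of all, and in 3.25% in WT, beside 3.09%. The miR-24 seed had one in 1.88% in KO, beside 1.31%, and in 3.25% in WT, beside 1.31%, and the miR-21a seed had one in 0.620% of all groups in KO and 0.543% in WT. miR-24-3p had 42754 and 42844 counts per 1000000 miRNA counts in KO3 and KO4, against 37555 and 48392 in WT1 and WT2, and the miR-27 family had 16879 and 17358 in KO, against 17513 and 17797 in WT. By the sample labels, number and genotype cannot be told apart in these small RNA libraries. The fraction column of the library labelled KO4 is headed with another KO number, so its number rests on the sample label. A match to any of the 20 most abundant seed families was found in 13.8% of the 160 lysosome 3′UTR groups in KO (exact 95% interval 8.82 to 20.1%), where all genes had 20.9%, and in 17.5% of 154 in WT (11.9 to 24.5%), where all genes had 20.5%. Those groups held 74.8% of the lysosome reads in KO, beside 33.6% over all genes, and 70.6% in WT, beside 43.6%. Most of these reads lay in the printed Psap group. The KO share also includes a Psap group of 6222 reads in a stretch that is annotated as coding in WT. The WT share leaves that stretch out, so the KO and WT shares cover unlike sets. The U-rich run TTTTT, of the kind ELAVL1 binds, was found on the mRNA strand in 7.5% of lysosome groups in KO (3.94 to 12.7%) beside 9.83% of all, and in 10.4% in WT (6.06 to 16.3%) beside 11%. The run ATTTA, of AU-rich elements, was in 3.13% of lysosome groups in KO (1.02 to 7.14%) beside 6.33% of all, and in 3.25% in WT (1.06 to 7.41%) beside 7.48%. The intervals on these shares take each group as independent. Many groups lie in the same gene, as the 27 of Ctsb in KO, so the intervals may be too narrow. A match is a description of letters and does not show which miRNA or protein was there.

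Summed over the list, 3′UTR groups held 38824 reads in KO and 45466 in WT. Scaled to all reads in groups, KO over WT was 0.833 (95% interval 0.822 to 0.844), and for 3′UTR reads of all genes it was 0.835. Psap held 66.5% of the lysosome 3′UTR reads in KO and 58.0% in WT, and without it the ratio was 0.664 (0.649 to 0.679). The Psap value depends on a label. A WT group of 11233 reads at chr10:59764462-59764676 is annotated as coding, on 1 transcript, whereas the 4 KO groups within that stretch, with 6521 reads, are annotated as 3′UTR on another. That stretch had 1012 RPM (reads per 1000000 reads in groups) in KO and 1786.5 in WT. With the WT group counted as 3′UTR, Psap had 25819 reads in KO and 37586 in WT, a ratio of 0.670 (0.660 to 0.681) in place of 0.956 (0.940 to 0.972), and the list as a whole had 0.668 (0.659 to 0.677), while the same rule over all genes gave 0.830. The Psap mRNA ratio was 0.15 on the log2 scale, as given above.

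Single genes varied around these sums. Of 27 lysosome genes with at least 20 reads over both libraries 17 had a KO over WT ratio below 1, beside 67% of 4956 genes, and their median was 0.854, beside 0.726 over those genes. A ratio under 0.5 arose in 4 (background 31.4%) and one above 2 in 3 (background 13.8%). Man2b1 had no listed group in KO and 27 reads in WT. Of the 26 genes listed in both libraries Tpp1 was lowest, with 1586 reads in KO and 5045 in WT and a ratio of 0.307 (0.290 to 0.325), while its mRNA log2 fold change was 0.06. The ceramidase Asah1 had 99 reads in KO and 200 in WT, a ratio of 0.483 (0.376 to 0.617), and the glucosidase Gaa 23 in KO and 45 in WT, a ratio of 0.499 (0.288 to 0.842). The Gaa reads of KO and WT lay in groups at different places with no overlap, as did those of Hexa and Neu1, so these 3 ratios compare different sites. Npc1, which exports cholesterol, was highest with 119 reads in KO and 30 in WT, a ratio of 3.87 (2.57 to 5.99). Hexa had 30 reads in KO and 10 in WT (2.93, 1.39 to 6.71), and Ppt1 had 48 in KO and 19 in WT (2.46, 1.42 to 4.44). The ratios of Npc1 and Ppt1 also rest in part on places listed in 1 library only. Overlapping Npc1 groups held 42 reads in KO and 19 in WT, and overlapping Ppt1 groups held 16 in KO and 19 in WT. The other 3′UTR reads of both genes lay in groups with no overlap. Hgsnat, the gene with the lowest mRNA p, had no listed 3′UTR group in KO and 17 reads in WT.

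Relative to mRNA level most lysosome genes had few AGO2 reads. The 3′UTR reads in RPM divided by RPKM had a median of 0.179 over the 26 lysosome genes in KO and 0.163 over the 29 in WT, against 1.14 in KO and 1.35 in WT over all genes with a 3′UTR group, and 20 of 26 in KO and 23 of 29 in WT lay below those medians. That value falls with the level in all genes, however. In the highest quintile of RPKM values the medians over all genes were 0.196 in KO and 0.214 in WT, and 12 of 23 lysosome genes in KO and 16 of 26 in WT lay below the median there. Hexa was at the bottom, at the 0.286th percentile of all genes in KO and the 0.130th in WT.

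Some lysosome genes stood above the others on this value. Tpp1 had 246 RPM at a mean of 102 RPKM in KO and 802 at 97.8 RPKM in WT, which put it at the 64.8th percentile in KO and the 82.3rd in WT, and it was above the 90th percentile of its level quintile in both libraries. Glb1, the beta-galactosidase, was above it in KO only, at 122 RPM in KO and 84.8 in WT. Most Glb1 reads, 773 of 785 in KO and 478 of 533 in WT, lay in the printed group at chr9:114315713-114315738. That group is annotated on another transcript than the groups at chr9:114383169-114383443, which held 12 reads in KO. The place of Glb1 therefore rests on the 3′UTR label of that other transcript. Ctsl had 545 RPM in KO and 704 in WT, at the 51.2nd percentile over all levels in KO and the 52.3rd in WT per RPKM, and at the 77.2nd in KO and 79.0th in WT per CPM. Atp6v0d2 was at the 50.6th in KO and 56.4th in WT per RPKM, and at the 79.6th in KO and 83.7th in WT per CPM. Gnptab reached the 77.3rd percentile in KO and the 79.8th in WT per RPKM, on an implied length of 17.1 kb, and the 57.6th in KO and 61.3rd in WT per CPM, so the places of these 3 genes move with the length. Psap, with the most reads of the list, was at the 51.6th percentile in KO and the 51.2nd in WT.

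**Figure D5:**
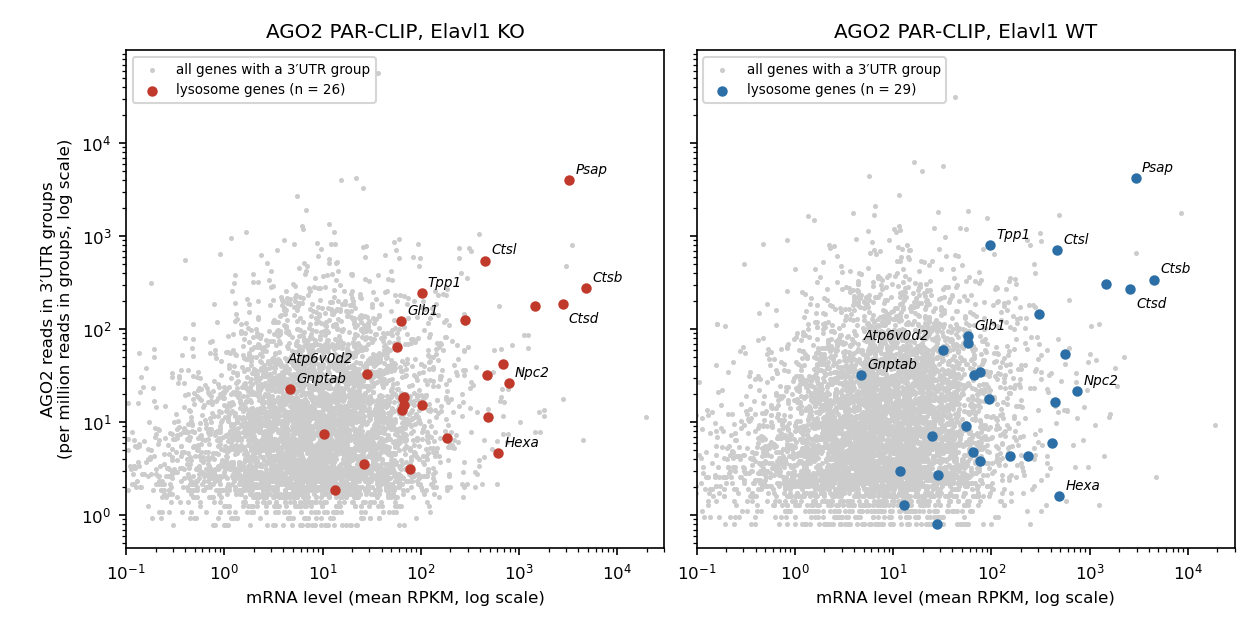
AGO2 reads in 3′UTR groups in RPM against mean mRNA level in RPKM (both axes log), KO left and WT right. Coloured points are lysosome genes with a 3′UTR group (26 in KO, 29 in WT) and grey points are all genes with one. Psap lies at the top right of the lysosome genes in both panels, and Tpp1 is higher in WT (802 RPM) than in KO (246).

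Outside 3′UTRs, lysosome mRNAs had a larger share of coding groups than all genes together, in a comparison not matched for mRNA level. Introns held a smaller share of lysosome groups, 12.3% in KO and 9.76% in WT, beside 32.6% in KO and 20.1% in WT over all genes. Coding groups made up 45.5% of lysosome groups in KO and 48.0% in WT, beside 23.4% in KO and 25.7% in WT of groups over all genes in the 4 annotation classes used. They held 11364 reads in KO and 23546 in WT, of which the relabelled Psap stretch accounts for 11233 in WT. Ctsd had 3792 coding reads in KO and 3672 in WT, more than its 3′UTR reads, 1194 in KO and 1693 in WT, and Lamp2 had 1162 coding reads in KO and 1459 in WT, with 118 in KO and 217 in WT in its 3′UTR. Conversions marked 74.4% of lysosome 3′UTR groups in KO and 85.7% in WT, beside 81.6% in KO and 86.9% in WT of all 3′UTR groups. Lysosome 3′UTR groups of KO overlapped a WT group of any class by at least 1 base in 59.4% (all genes 52.1%). Those of WT overlapped a KO group of any class in 57.1% (all genes 40.7%). The shared groups held 96.8% of the lysosome 3′UTR reads in KO (all genes 90.0%) and 97.3% in WT (all genes 86.8%).

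The promoters of some lysosome genes hold the CLEAR-type palindrome. RefSeq windows of 250 bases before to 50 after the start (GRCm38.p6) were at hand for 30 of the 37 genes. The letters TCACGTGA, which read the same on both strands and contain the shorter CACGTG, were in windows of 5 of them (16.7%), beside 1.12% of 27025 genes. CACGTG itself was in 9 of 30 (30%), beside 8.09%. A longer form of the palindrome, with a G before it and a C after it, was in 0 of 30, beside 0.37% of 27025 genes. At so low a share, 0 of 30 does not set the list apart from all genes. These shares are a description of the list, and the genes did not move together with genotype. Of the 5 genes that hold TCACGTGA, Mcoln1 was lower in numbers 3 and 4, Atp6v1a and Gla were higher there, and Ctsa and Ctsd overlapped. The mRNA of Tfeb, whose product binds such elements, was lower in numbers 3 and 4. Any link between Tfeb and these genes was not tested. One 30-base stretch for each gene is shown with the palindrome in capitals:
Ctsa, chr2:164833749-164833778, plus strand: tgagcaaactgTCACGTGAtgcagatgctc
Ctsd, chr7:142387908-142387937, minus strand: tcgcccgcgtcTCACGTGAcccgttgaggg
Gla, chrX:134601215-134601244, minus strand: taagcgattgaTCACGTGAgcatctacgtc
Atp6v1a, chr16:44139373-44139402, minus strand: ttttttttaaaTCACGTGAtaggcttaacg
Mcoln1, chr8:3500462-3500491, plus strand: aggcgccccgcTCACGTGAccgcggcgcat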

How the data were processed

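The members and lists were chosen with earlier results of these data known. The authors deposited, per the file headers, read counts and RPKM for 21444 genes in each mRNA library, read counts and fractions for 485 miRNAs in each small RNA library (the fractions deposited beside the counts were not used), and PAR-CLIP groups of at least 5 reads with read counts, conversion counts, a sequence, an annotation class and a gene name. The submitters' processing notes name CASAVA 1.8.2, Bowtie 0.12.7 and mm9. Which tool counted genes, whether it used strand, how it handled reads with several hits and what made the groups is not given in the sources used here. Whether group coordinates count from 0 or 1 could not be settled. Symbols matched 19328 of the 21444 Ensembl identifiers.

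KO was compared with WT by edgeR 4.0.16 (R 4.3.3) quasi-likelihood tests on the deposited counts with genotype alone, TMM scaling, genes kept by filterByExpr and Benjamini-Hochberg adjusted p under 0.05 over 14019 genes. CPM are TMM-scaled and SE is the log2 fold change over the root of F. Alternatives were other scaling, DESeq2 1.42.0, no filter, a replicate block, subsets of numbers and leaving out each library. The numbers were taken to pair the libraries, since deviations of equal-numbered libraries from their group means correlated at 0.770, 0.810, 0.745 and 0.801 (minimum 0.1), but KO3 with WT4 gave 0.832, so for numbers 3 and 4 they may show the set and not the pair. The edgeR fits with and without the block were tested on simulated counts with known changes before use. Each number there had its own deviation, shared by both genotypes. Pairs were thus built in, so the simulation cannot show whether the numbers pair the libraries here.

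AGO2 reads were scaled to all reads in groups. Ratios have exact conditional binomial intervals and shares exact Clopper-Pearson intervals, both at 95%, and reads without molecular identifiers make these cover counting error only. Group tables were read in Python 3.11.15 with pandas 2.3.3, numpy 2.4.6 and scipy 1.17.1. miRNA names matched RefSeq for 368 of 485. Genes given in full were the 6 of highest mean RPKM, the 5 of lowest p in each direction, the 5 with most 3′UTR reads, any past the threshold in a fit, and Tfeb and Mcoln1.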

Additional observations from a re-analysis of the deposited data

Results flagged for a closer look

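Among 76 groups of 4 libraries examined (CPM of each lysosome gene in each genotype, and their summed share), 4 held a library whose distance to its nearest neighbour exceeded Dixon's 95% critical share of the range of the group. Chance gives such a library in about 5% of groups. The lysosome share of WT1 was 3.69%, against 6.10 to 6.26% in the other 3 WT libraries. Ctsc in KO1 stood at 625 CPM, against 433 to 459.6 CPM in the other KO libraries. Hexa in WT2 stood at 1709.6 CPM, against 760.3 to 916 CPM in the other WT libraries. Gusb, which encodes beta-glucuronidase, stood at 587 CPM in KO2, against 860.2 to 867 CPM in the other KO libraries, and at 589 CPM in WT2. Libraries of the same number were also the extreme ones of the other genotype for these values, and no cause was tested.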

How the results depend on the processing

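Fit by fit, the number of all genes called with genotype alone was 0, and it was 3 with DESeq2, 5 with the replicate block, 82 with DESeq2 and the block (added after seeing the data), 14 with numbers 3 and 4 alone, and 4, 29, 7 and 3 with the block and pair 1, 2, 3 or 4 left out. Lysosome genes called were 0 in each of these fits, except 2 with DESeq2 and the block. The list's median log2 fold change, 0.06 with genotype alone and 0.05 with the block, ran from -0.040 to 0.13 over fits without 1 library, and its count of higher genes from 16 to 30. The difference in share of counts ran from -0.19 to 1.01 points over these, and the block gave 0.444. Of the 20 genes given in full, 8 kept their direction in all 19 alternative fits (Atp6v0c, Ctsa, Ctsc, Hexa, Hgsnat, Lamp2, Man2b1 and Ppt1). Without 1 library the log2 fold change ran from -0.30 to 0.14 for Atp6v1h, -0.22 to 0.075 for Cd63, -0.063 to 0.24 for Ctsb, -0.056 to 0.20 for Ctsd, -0.33 to 0.20 for Ctsl, -0.15 to 0.55 for Ctss, -0.16 to 0.19 for Ctsz, -0.10 to 0.086 for Mcoln1, -0.072 to 0.20 for Npc2, -0.066 to 0.36 for Psap, -0.14 to 0.41 for Tfeb and -0.028 to 0.18 for Tpp1. Ctsz turned to 0.0132 with the block in edgeR and in DESeq2, 0.070 with numbers 3 and 4 alone, and 0.10 and 0.0032 with the block and pair 2 or 4 left out. Mcoln1 turned to -0.00099 with the block in edgeR and -0.0011 in DESeq2, -0.024 with numbers 3 and 4 alone, and -0.0029, -0.011 and -0.040 with the block and pair 1, 2 or 4 left out. With numbers 1 and 2 alone Ctss turned to -0.046 and Tpp1 to -0.0054.

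For AGO2, groups of 20 or more reads left 56.8% of lysosome genes with a 3′UTR group in WT, against 78.4% with all groups. The share of all genes left at that cut was not taken. Counting groups in place of reads put 92.3% of lysosome genes in KO and 96.6% in WT below the median per RPKM, against 76.9% in KO and 79.3% in WT by reads. KO over WT of their 3′UTR reads, 0.833, was 0.998 scaled to 3′UTR reads, 0.860 as the median over the 26 genes listed in both libraries, and, both added after seeing the data, 0.664 without Psap and 0.668 with overlapping groups of another class counted as 3′UTR. The cause of these shifts was not tested, beyond the label of the Psap group. Each genotype has 1 AGO2 library, 3 or 4 lysosome genes had no group at a floor of 5 reads a group, and the blocked numbers may not mark pairs, which limits what a KO and WT difference can show here.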
